A study of Mus musculus with 8 samples.

Results

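Chemokines are small secreted proteins that steer migrating leukocytes by binding receptors with 7 membrane passes. The 10 chemokine genes described here are Cxcl9, Cxcl10, Cxcl12, Cxcl14, Ccl2, Ccl6, Ccl8, Ccl9, Ccl11 and Cx3cl1, out of 18215 genes listed in any of 8 mouse heart libraries. They were found by NCBI Gene number, all 10 had a row, and 9 passed the filter on low counts. Cxcl9 was selected on its measured level, which was higher in the transgenic hearts, so its difference between the groups is given below as a description with no test. The other 9 were added as chemokine genes.

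The libraries were made from polyadenylated RNA of the heart. The TG group holds 4 libraries of Carns transgenic mice, named for carnosine synthase, the enzyme that joins histidine to beta-alanine. The WT group holds 4 libraries of wild-type mice. The labels give no strain, age, sex or transgene promoter, and no label ties a library to an animal of its own, so the tests measure the spread between these libraries, which may be technical.

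Cxcl9 and Cxcl10 are known as interferon gamma-induced chemokines that, with Cxcl11, attract T cells and natural killer cells through the receptor Cxcr3. Cxcl12 is a ligand made by resident stromal and endothelial cells that retains cells bearing Cxcr4, and Cx3cl1 is tethered to the cell surface of endothelium until it is shed. The Ccl genes encode attractants of monocytes, macrophages and eosinophils, many of which are made by macrophages and fibroblasts in the heart.

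Cxcl9 and Cxcl10 are neighbours on mouse chromosome 5 and stood at very different levels in these hearts, so the 250 bases before the start of each are shown. They come from the RefSeq promoter table of build GRCm38.p6, written 5′ to 3′ along the gene, which lies on the minus strand in both cases. The Cxcl9 window is chr5:92328080-92328329 and the Cxcl10 window is chr5:92348890-92349139. Capitals mark matches to any of 5 motifs, searched on both strands. These are the kappa B site, the gamma activated site (TTCNNNGAA), the interferon-stimulated response element (GAAA, any 2 bases, GAAA), the AP-1 site (TGANTCA) and the CCAAT box (CCAAT).
Cxcl9: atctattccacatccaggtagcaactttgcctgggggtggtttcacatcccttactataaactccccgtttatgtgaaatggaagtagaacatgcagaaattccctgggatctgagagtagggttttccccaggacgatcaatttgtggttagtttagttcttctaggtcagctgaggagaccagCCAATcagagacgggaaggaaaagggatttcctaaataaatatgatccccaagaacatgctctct
Cxcl10: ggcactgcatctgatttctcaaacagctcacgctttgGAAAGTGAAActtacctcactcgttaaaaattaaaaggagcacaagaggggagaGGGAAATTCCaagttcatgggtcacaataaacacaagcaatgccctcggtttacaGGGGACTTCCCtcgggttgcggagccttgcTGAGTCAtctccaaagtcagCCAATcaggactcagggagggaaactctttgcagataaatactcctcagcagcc

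In the Cxcl9 window the only match was a CCAAT box that begins 65 bases before the start. The Cxcl10 window held a CCAAT box beginning at 54 bases, an AP-1 site at 74 bases, an interferon-stimulated response element at 213 bases and kappa B sites at 159, 104 and 103 bases, of which the last 2 overlap. Among 32841 promoter windows of the same length, 33.9% held a CCAAT box, 7.3% a kappa B site, 7.0% a gamma activated site, 6.8% an AP-1 site and 3.0% an interferon-stimulated response element. Of the 8 members with a window in the table, Cxcl14 held a gamma activated site and an interferon-stimulated response element, and Ccl9 held a kappa B site and an AP-1 site. A match is a description of letters, and its absence says nothing of a factor.

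Library totals lay between 6261193 and 7897629 expected counts. CPM is the count scaled to a common library size, and 3 counts are worth 0.380 to 0.479 CPM by these unadjusted totals. The CPM levels of genes given below use the TMM-scaled library sizes instead. Carns1 was at 19100 to 24300 CPM in TG, against 44.5 to 73.3 CPM in WT, as the labels say, and heart muscle markers such as Mb and Myh6 were abundant in every library. In this contrast edgeR's quasi-likelihood test with Benjamini-Hochberg adjustment called 2 of 12670 genes, Carns1 among them. Below, ± is the SD over the 4 libraries of a group, and adjusted p-values are from this fit. TG replicates 1 and 2 each stood apart from the other libraries in the genes named next, which were picked by their values in these data. Over all tested genes they did not stand alone within TG. By chi-square per degree of freedom, TG replicate 1 was closest to TG replicate 3 (4.45) and TG replicate 2 to TG replicate 4 (7.65). In TG replicate 1 the lymphoid chemokine Cxcl13 was at 13.2 CPM, against at most 0.594 elsewhere, and the matrix protease Mmp9 was at 54.9 CPM, against at most 5.54. In TG replicate 2 the atrial gene Myl7 was at 203 CPM and the fat-rich Car3 at 393 CPM, against at most 46.8 and 18.1 elsewhere. The libraries also fall into 4 deeper ones (TG replicates 1 and 3, WT replicates 1 and 2) and 4 shallower ones, a split taken from the totals and not from the labels. The closest pairs of TG libraries named above each share a depth class.

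Cxcl9 (NCBI Gene 17329) was measured at 14.7, 12.7, 11.8 and 10.7 CPM in TG replicates 1 to 4, against 7.60, 7.09, 6.77 and 5.96 CPM in WT replicates 1 to 4. All TG libraries lay above all WT libraries, with a gap between 10.7 CPM in TG, against 7.60 CPM in WT. Of all tested genes 1.23% were likewise higher in TG without overlap, and DESeq2 called 0.118%, which is background only because Cxcl9 was chosen on this contrast. The means were 12.5 ± 1.71 CPM in TG, against 6.86 ± 0.688 CPM in WT. In the fit over all genes this came to 0.86 on the log2 scale, or 1.82-fold, with no interval given because Cxcl9 was chosen on this contrast. On the authors' length-scaled FPKM the values were 4.90, 4.35, 3.92 and 3.74 in TG and 2.57, 2.30, 2.33 and 2.15 in WT.

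These values rest on 350 expected counts in TG and 195 in WT, summed over each group and rounded. The expected counts of Cxcl9 were not whole numbers in any library, and the cause was not tested. The log2 fold change was 0.77 without TG replicate 1 and 0.71 without TG replicates 1 and 2 together. It was 0.85 within the deeper libraries and 0.88 within the shallower ones. Because all TG libraries lay above all WT libraries, no subset of them could change its sign. These values therefore describe its size and are no support for the difference. In bulk tissue, more Cxcl9-making cells and more Cxcl9 RNA per cell cannot be told apart.

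**Figure D1:**
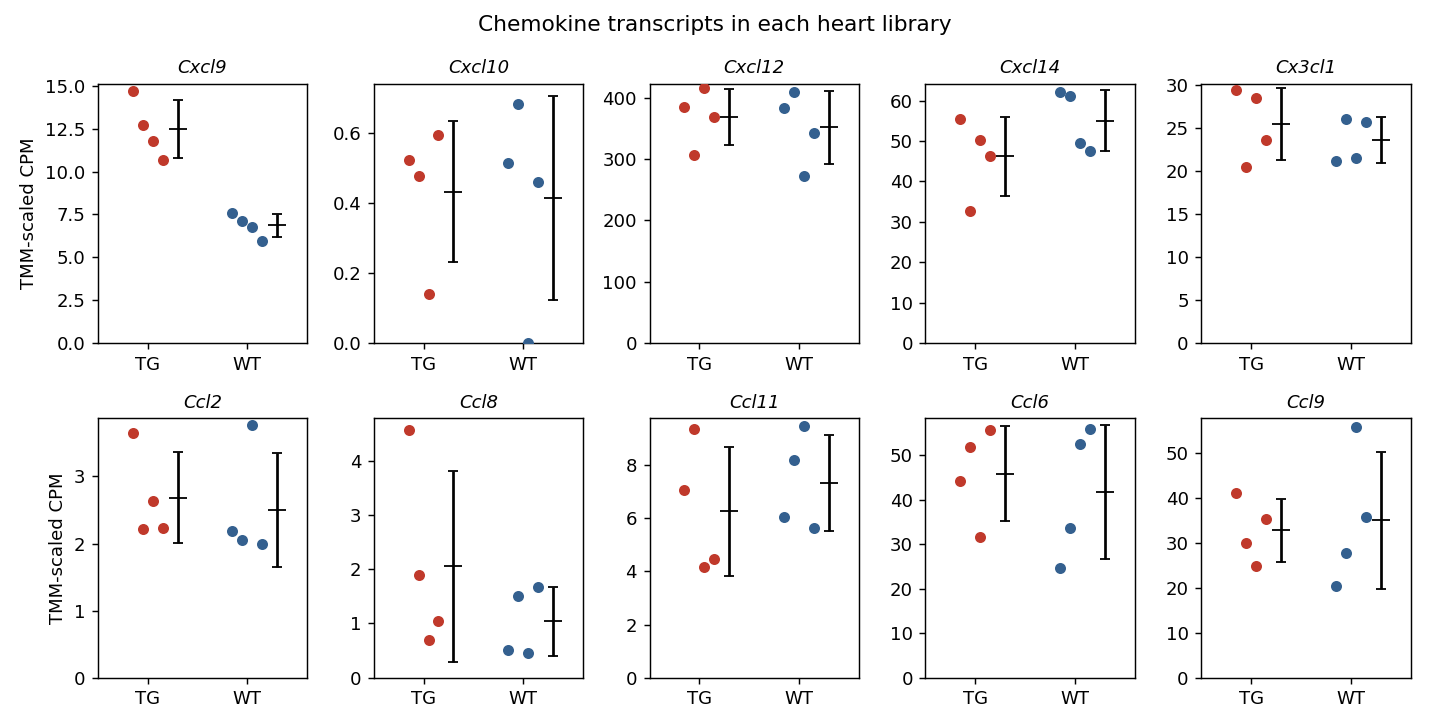
TMM-scaled CPM (y axis, from 0) of the 10 chemokine genes in the 4 TG libraries (red) and 4 WT libraries (blue), with the mean and SD of each group in black. Cxcl9 lies between 10.7 and 14.7 CPM in TG and between 5.96 and 7.60 CPM in WT, while the groups overlap in the other 9 genes. Of all tested genes 2.53% did not overlap.

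The relatives of Cxcl9 that share its receptor were near the limit of detection. Cxcl10 was counted 4, 3, 1 and 4 times in TG replicates 1 to 4, against 4, 5, 0 and 3 times in WT replicates 1 to 4. Both groups summed to 12 counts, with an exact 95% Poisson interval of 6.2 to 21.0, and the gene did not pass the filter for testing. Per length it stood at 0.390 ± 0.187 FPKM in TG, against 0.370 ± 0.256 FPKM in WT. Whether Cxcl10 differed between the groups was therefore not tested, and at these counts its level is known only within that wide interval.

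Cxcl11, which RefSeq annotates as a transcribed pseudogene in this reference strain, had 1.96 to 7.43 expected counts per library. Their receptor Cxcr3 was counted 3, 1, 3 and 2 times in TG, against 2, 4, 2 and 4 times in WT. Ifng, the gene of interferon gamma itself, was not listed in any of the 8 libraries. Of 17 listed markers of T and natural killer cells, 3 passed the filter, namely Thy1, Cd247 and Cd4. Cd247 had 18 to 35 counts per library and Cd4 had 11 to 31. The remaining markers were sparse, with Cd3e at 1 to 6 counts in TG and 1 to 4 in WT. Ncr1, a receptor of natural killer cells, had at most 1 count in any TG or WT library. The summed level of 18 such markers, of which 17 were listed, lay between 33.5 and 38.2 CPM in TG and between 37.3 and 44.2 CPM in WT, most of it Thy1, which other cells express too. Their part in the Cxcl9 level was not tested.

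Of a chosen list of 23 other genes induced by interferon gamma, 21 were tested and none was called. The list holds guanylate-binding proteins, immunity-related GTPases and genes of antigen presentation. All 21 tested members had a log2 fold change below 0, with a median of -0.19, where the median of all tested genes was 0.00 and 49.5% of them lay above 0. None of the 21 passed the threshold in edgeR with Benjamini-Hochberg adjustment or in DESeq2, and 3 had an unadjusted p under 0.05, against 3.49% of all genes.

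Iigp1, an immunity-related GTPase, was at 12.7, 16.8, 10.1 and 12.9 CPM in TG, against 25.8, 13.8, 24.2 and 33.5 CPM in WT, and WT replicate 2 lay within the TG range. The guanylate-binding genes Gbp3 and Gbp4 averaged 4.89 ± 0.459 and 8.89 ± 1.68 CPM in TG, against 7.20 ± 1.99 and 12.9 ± 4.45 CPM in WT. Cd74, the invariant chain of class II molecules and the most abundant member, was at 505 CPM in TG replicate 1 and at 254 to 269 in the other TG libraries, against 312 to 388 CPM in WT. Of the 7 tested genes of interferon gamma signalling 4 lay below 0 and none passed in either tool, with Ifngr2 at 446 ± 57.7 CPM in TG, against 440 ± 51.0 CPM in WT. Irf1, a transcription factor induced by interferon gamma, was at 31.4 to 38.4 CPM in TG, against 38.5 to 51.1 CPM in WT. Its groups did not overlap, which held for 2.53% of all genes, and its log2 fold change of -0.38 had an adjusted p of 1 in edgeR with Benjamini-Hochberg adjustment.

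The count of 21 depended on single libraries. It was 16 of 21 below 0 without WT replicate 4, with a median of -0.09, and 12 of 21 within the deeper libraries, with a median of -0.05. It was 20 without TG replicate 1, with a median of -0.38, and 21 without TG replicates 1 and 2 together, with a median of -0.34. Markers of macrophages and dendritic cells, which carry class II molecules, lay below 0 in 14 of 16 tested genes, with a median of -0.26, and their part in this count was not tested. Among 20 tested genes of the type I interferon response 19 lay below 0, with a median of -0.21, while 15 of 20 did so without WT replicate 4, with a median of -0.12, and 11 of 20 within the deeper libraries, with a median of -0.05. None of these 20 passed in either tool and 0 had an unadjusted p under 0.05. Irf7 averaged 16.5 ± 2.28 CPM in TG, against 20.4 ± 2.40 CPM in WT, and Bst2, the member with the highest FPKM, 25.1 ± 4.50 CPM in TG, against 29.3 ± 2.98 CPM in WT. NF-kB genes showed 6 of 11 below 0, a median of -0.05 and no call, with the inhibitor Nfkbia at 69.0 ± 17.5 CPM in TG, against 71.7 ± 20.7 CPM in WT.

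**Figure D2:**
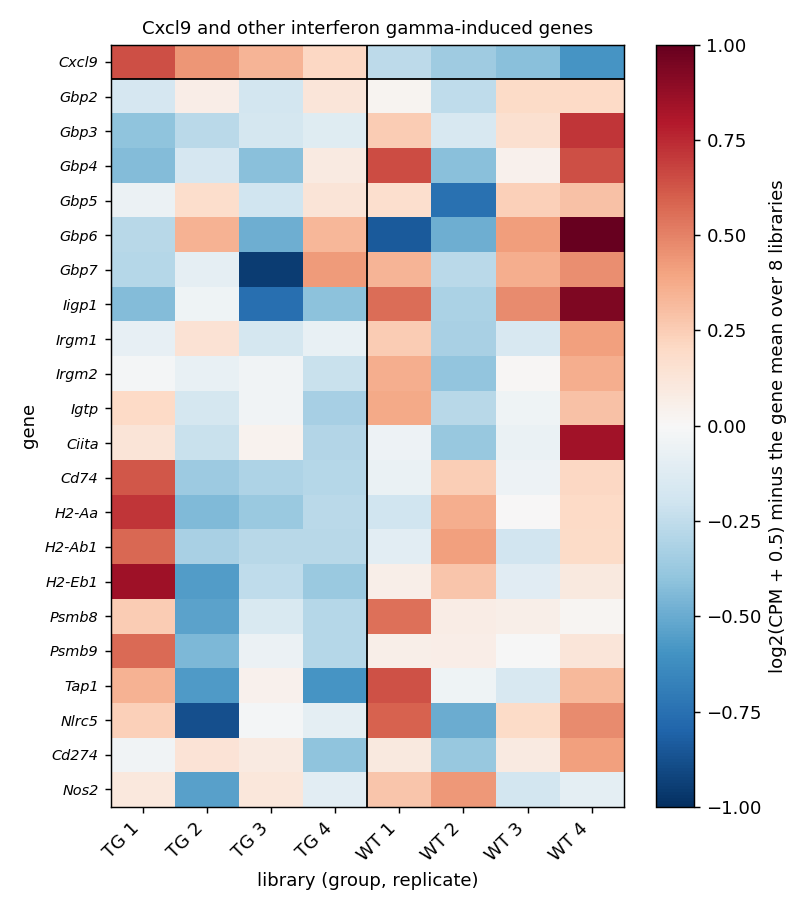
Colour gives log2(CPM + 0.5) minus the gene's mean over the 8 libraries, for Cxcl9 (top row) and 21 other interferon gamma-induced genes (rows), in TG libraries (left of the line) and WT libraries (right). Cxcl9 is above its mean in every TG library (0.20 to 0.64) and below it in every WT library (-0.59 to -0.26), and Cd74, H2-Aa, H2-Ab1 and H2-Eb1 are highest in TG replicate 1.

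Of the 9 other members, 8 were tested, and none differed between the groups in edgeR with Benjamini-Hochberg adjustment, where 0.0158% of all genes were called. None had an unadjusted p under 0.05 in edgeR, against 3.49% of all tested genes. DESeq2 called none of the 8, against 0.118% of all tested genes. Their median log2 fold change was 0.09, and 5 lay above 0 and 3 below, where 49.5% of all tested genes lay above 0. The groups overlapped in every one of the 9. Only 2.53% of all tested genes did not overlap, so this is the usual case and not particular to these genes.

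Cxcl12 (Gene 20315), the ligand of Cxcr4 and of the scavenger receptor Ackr3, was the most abundant member. It was at 385, 307, 416 and 369 CPM in TG, against 383, 409, 273 and 342 CPM in WT. The groups covered much the same range, and the lowest library was WT replicate 3. The fold change was 1.05 (95% interval 0.854 to 1.29, edgeR with Benjamini-Hochberg adjusted p = 1). Cxcr4 averaged 11.6 ± 0.647 CPM in TG, against 10.6 ± 0.923 CPM in WT, and Ackr3 129 ± 9.92 CPM in TG, against 131 ± 6.09 CPM in WT, both with an adjusted p of 1 in edgeR.

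Cxcl14 (Gene 57266), a chemokine known from epithelia and adipose tissue, was at 55.5, 32.7, 50.3 and 46.3 CPM in TG, against 62.1, 61.1, 49.6 and 47.4 CPM in WT. TG replicate 2, the library rich in atrial and fat transcripts, was the lowest. The fold change was 0.84 (95% interval 0.659 to 1.07, edgeR adjusted p = 1). It was negative under every alternative tried, between -0.35 and -0.12 on the log2 scale.

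Cx3cl1 (Gene 20312), the membrane-tethered fractalkine, was at 29.4, 20.5, 28.5 and 23.6 CPM in TG, against 21.1, 26.1, 21.5 and 25.7 CPM in WT. It varied least of the 9 tested members, 1.43-fold from its lowest to its highest library. The fold change was 1.08 (95% interval 0.870 to 1.35, edgeR adjusted p = 1). Its receptor Cx3cr1, carried by monocytes and macrophages, was at 5.71 to 10.1 CPM in TG, against 4.91 to 19.7 CPM in WT, with WT replicate 4 the highest. The 6 chemokine-processing proteases were all tested without a call in edgeR, and 1, Mmp9, had an unadjusted p under 0.05. DESeq2 gave Mmp9 no adjusted p and called none of the others. The proteases that shed Cx3cl1, Adam10 and Adam17, averaged 28.1 ± 5.82 and 26.7 ± 5.74 CPM in TG, against 30.4 ± 8.66 and 25.7 ± 6.15 CPM in WT.

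Among the CC chemokines, Ccl2 (Gene 20296), the main monocyte attractant through Ccr2, was low, at 3.65, 2.22, 2.64 and 2.23 CPM in TG, against 2.19, 2.05, 3.76 and 1.99 CPM in WT. Each group had 1 library above 3 CPM, TG replicate 1 and WT replicate 3. The fold change was 1.09 (95% interval 0.700 to 1.69, edgeR adjusted p = 1), and its log2 value was -0.07 without TG replicate 1. Ccl7, a relative of Ccl2, was highest in the same pair of libraries, at 3.0 CPM in TG replicate 1 and 3.61 CPM in WT replicate 3, against 0.695 to 2.23 CPM in the rest. Ccr2 averaged 1.70 ± 0.930 CPM in TG, against 1.91 ± 0.841 CPM in WT.

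Ccl8 (Gene 20307), a CC chemokine expressed by macrophages, had the widest spread of the tested members, 10.1-fold between libraries. It was at 4.57, 1.90, 0.695 and 1.04 CPM in TG, against 0.515, 1.5, 0.451 and 1.68 CPM in WT. TG replicate 1 alone lay far above the rest, and the other 3 TG libraries fell within 0.695 to 1.90 CPM. The fold change was 2.01 (95% interval 0.824 to 4.90, edgeR adjusted p = 1), and its log2 value was -0.25 without TG replicates 1 and 2 together. Without TG replicate 1 alone the gene no longer passed the filter. The related Ccl12 was also highest in TG replicate 1, at 3.65 CPM, against 0.476 to 1.64 CPM elsewhere.

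Ccl11 (Gene 20292), eotaxin, an attractant of eosinophils through Ccr3, was at 7.05, 9.36, 4.17 and 4.46 CPM in TG, against 6.05, 8.19, 9.48 and 5.65 CPM in WT. TG replicates 3 and 4 were the lowest libraries. The fold change was 0.850 (95% interval 0.567 to 1.28, edgeR adjusted p = 1). Ccr3 itself was listed with 1 count in TG replicate 2 and in no other library. Ccl24, which also signals through Ccr3, averaged 2.58 ± 0.577 CPM in TG, against 4.67 ± 1.30 CPM in WT, the smallest p among the other ligands, at an adjusted p of 1 in edgeR.

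Ccl6 (Gene 20305) and Ccl9 (Gene 20308) are neighbouring chemokine genes of rodents, expressed by macrophages. Ccl6 was at 44.2, 51.9, 31.6 and 55.7 CPM in TG, against 24.7, 33.6, 52.6 and 55.9 CPM in WT. Ccl9 was at 41.0, 30.0, 24.7 and 35.2 CPM in TG, against 20.4, 27.8, 55.8 and 35.8 CPM in WT. In both genes WT replicate 1 was the lowest library and the WT group was wider than the TG group. The fold changes were 1.10 for Ccl6 (95% interval 0.764 to 1.59) and 0.940 for Ccl9 (95% interval 0.637 to 1.39), each with an edgeR adjusted p of 1. The expected counts of Ccl9, like those of Cxcl9, were not whole numbers in any library.

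**Figure D3:**
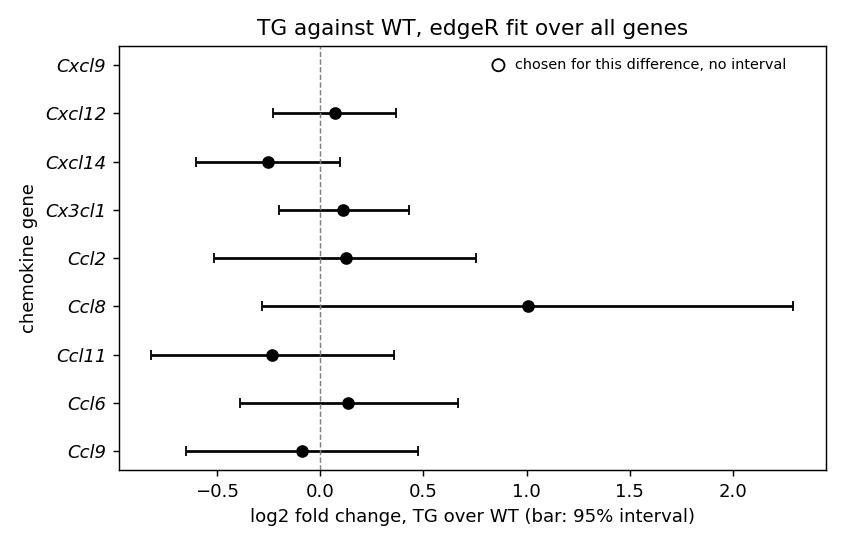
Log2 fold change of TG over WT (x axis) for the 9 chemokine genes that were tested (rows), from the edgeR fit over all genes, with 95% intervals as bars. The intervals of the 8 members drawn with bars all include 0, Ccl8 has the widest (0.824 to 4.90 as a fold), and Cxcl9 is an open point at 0.86 with no interval because it was chosen for this difference.

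The split by depth ran through several members. Ccl6 was lower in all deeper libraries (24.7 to 44.2 CPM) than in all shallower ones (51.9 to 55.9 CPM). Cxcl12 was higher in the deeper (383 to 416 CPM) than in the shallower libraries (273 to 369 CPM), and so was Cxcl14 (50.3 to 62.1 CPM, against 32.7 to 49.6 CPM). Such a separation held for 29.9% of all tested genes, so 3 of 10 members is close to that share. Between TG and WT, 2.53% of all tested genes separated, so far more genes separated by depth class than by group. Cxcl9 did not separate by depth, at 7.09 to 14.7 CPM in the deeper and 5.96 to 12.7 CPM in the shallower libraries. Within the deeper libraries Ccl6 averaged 37.9 CPM in TG, against 29.1 CPM in WT, and within the shallower ones 53.8 CPM in TG, against 54.3 CPM in WT (n = 2 each).

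Levels between genes can be compared per length only. On FPKM the order over all 8 libraries was Cxcl12 (84.3 ± 9.21), Ccl6 (30.7 ± 9.27), Cxcl14 (27.2 ± 4.67), Ccl9 (11.2 ± 3.77), Cx3cl1 (7.70 ± 0.965), Ccl11 (6.40 ± 1.95), Cxcl9 (3.28 ± 1.07), Ccl2 (3.28 ± 0.896), Ccl8 (3.12 ± 2.64) and Cxcl10 (0.380 ± 0.208; SD, n = 8). Cxcl12 lay above Ccl6 in every library with no overlap of their ranges, and Ccl8 lay above Cxcl10 in the same way. The ranges of all other neighbours in this order overlapped. Cxcl9 stood above Ccl2 in 4 of 8 libraries, which were the 4 TG libraries (3.74 to 4.90 FPKM for Cxcl9 and 2.84 to 4.51 FPKM for Ccl2), and below it in the 4 WT libraries (2.15 to 2.57 FPKM for Cxcl9 and 2.48 to 4.85 FPKM for Ccl2). Their place in the order over all 8 libraries therefore differs between the groups, by the difference for which Cxcl9 was chosen. Ccl2 stood above Ccl8 in 4 of 8 libraries.

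**Figure D4:**
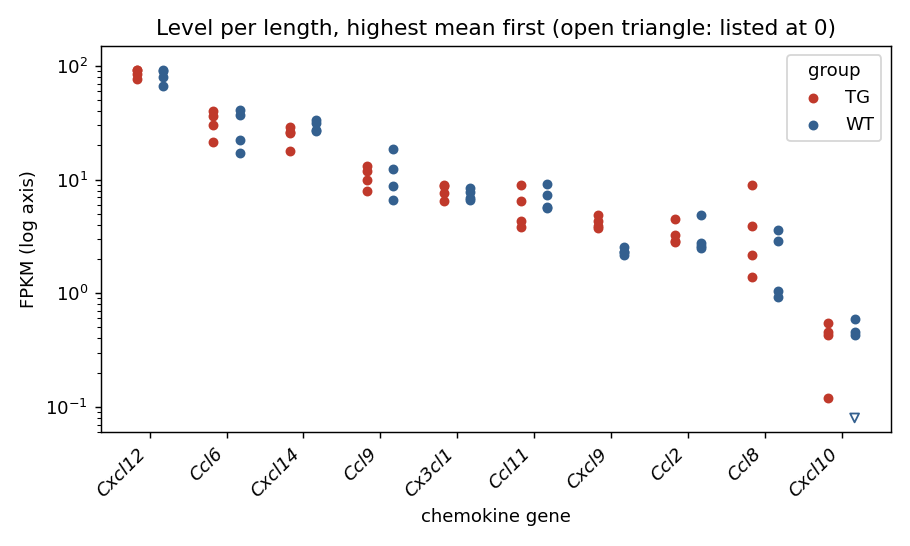
FPKM per library (y axis, log scale) of the 10 chemokine genes, ordered by their mean over 8 libraries, with TG in red left of WT in blue and an open triangle for a value listed at 0. Cxcl12 is at 66.84 to 92.83 FPKM, Cxcl9 at 2.15 to 4.90 FPKM and Cxcl10 at no more than 0.59 FPKM.

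Of 29 other chemokine ligands, 26 were listed in at least 1 library and 8 were tested. None passed in edgeR with Benjamini-Hochberg adjustment or in DESeq2, 1 had an unadjusted p under 0.05, and 6 of the 8 lay below 0, with a median of -0.14. Leaving out TG replicate 1 gave a median of -0.29, and leaving out TG replicate 2 gave -0.08. The median was -0.05 when either TG replicate 3 or WT replicate 2 was left out. Within the deeper libraries 8 of 8 lay below 0, with a median of -0.23, and within the shallower ones 5 of 8, with a median of -0.08. Ccl21a, a lymphatic ligand of Ccr7 that has near-identical copies and is therefore uncertain in its counts, was the most abundant at 49.7 ± 4.08 CPM in TG, against 50.2 ± 9.10 CPM in WT. Ppbp, a platelet chemokine, was at 14.6 CPM in TG replicate 4 and at 4.70 to 8.32 CPM elsewhere. The ligand Ccl27a averaged 4.75 ± 1.58 CPM in TG, against 5.70 ± 1.0 CPM in WT.

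All 18 signalling receptors were listed and 6 were tested, with no call in either tool. None had an unadjusted p under 0.05 in edgeR, against 3.49% of all tested genes, and 4 of the 6 lay below 0. Without WT replicate 4 this count was 1 of 6. Cxcr2, a receptor of neutrophils, averaged 8.96 ± 0.658 CPM in TG, against 9.80 ± 1.79 CPM in WT. Ccr1, the receptor of Ccl6 and Ccl9, was counted 12, 8, 1 and 5 times in TG, against 10, 6, 13 and 23 times in WT. Ccr7 did not pass the filter and was counted 2, 1, 1 and 1 times in TG, against 3, 4, 2 and 2 times in WT. Its groups did not overlap in CPM, but these counts are near the limit of detection and the difference was not tested. Of the 5 atypical receptors 4 were tested without a call, and Ccrl2 averaged 16.5 ± 3.20 CPM in TG, against 22.7 ± 7.59 CPM in WT.

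Markers of cells that could supply these chemokines were set beside them, and their part in the results was not tested. Of 16 tested macrophage and dendritic cell markers 14 lay below 0, with a median of -0.26, and their summed level was 448 to 723 CPM in TG, against 661 to 785 CPM in WT. None passed in edgeR or DESeq2, and 2 had an unadjusted p under 0.05, against 3.49% of all genes. The count below 0 was 11 of 16 without WT replicate 4, with a median of -0.15, 12 of 15 without TG replicate 3, with a median of -0.16, and 11 of 15 within the deeper libraries. It was 13 of 16 without TG replicates 1 and 2 together, with a median of -0.40. The receptor Csf1r averaged 84.8 ± 12.9 CPM in TG, against 109 ± 14.9 CPM in WT, and C1qa, the most abundant, 125 ± 30.8 CPM in TG, against 151 ± 12.5 CPM in WT. TG replicate 1, the library with the highest Cxcl9, also had the highest C1qa of the TG group, at 169 CPM, against 99 to 119 CPM in the other TG libraries. In WT, where Cxcl9 was lower, C1qa was at 139 to 169 CPM. WT replicate 2 had C1qa at 169 CPM and Cxcl9 at 7.09 CPM.

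Fibroblast markers summed to 3640 to 4610 CPM in TG, against 3420 to 3890 CPM in WT, endothelial markers to 1500 to 1900 CPM in TG, against 1620 to 1980 CPM in WT, and mural markers to 1450 to 1660 CPM in TG, against 1370 to 2070 CPM in WT. Neutrophil markers summed to 7.37 to 21.3 CPM in TG, against 5.15 to 12.2 CPM in WT, with S100a9 at 6.52 CPM in TG replicate 1. Monocyte markers summed to 3.20 to 7.05 CPM in TG, against 2.56 to 6.72 CPM in WT, B cell markers to 4.70 to 5.70 CPM in TG, against 4.21 to 9.14 CPM in WT, and mast cell and eosinophil markers to 12.1 to 21.6 CPM in TG, against 12.8 to 27.2 CPM in WT. No member of these 7 lists passed in either tool. Of these, the B cell list had 1 member with an unadjusted p under 0.05 and the others had none.

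Heart muscle markers summed to 83100 to 97900 CPM in TG, against 82700 to 97700 CPM in WT, and red cell markers to 11400 to 24500 CPM in TG, against 15000 to 24300 CPM in WT. Atrial markers summed to 61.3 to 856 CPM in TG, against 147 to 260 CPM in WT, and fat cell markers to 1.95 to 683 CPM in TG, against 2.11 to 17.3 CPM in WT. None of these 4 lists held a call in edgeR. An unadjusted p under 0.05 in edgeR was found for 3 of 4 atrial markers and for Car3, the only fat cell marker tested, against 3.49% of all genes. The median log2 fold changes were 2.61 and 5.65, and not all TG libraries were high. In TG replicates 1 and 3 Myl7 was at 2.87 and 1.81 CPM, against 1.35 to 18.8 CPM in WT. Car3 was at 1.57 and 0.695 CPM there, against 0.752 to 4.38 CPM in WT. DESeq2 gave Car3 no adjusted p and called no other member of the 4 lists. Cxcl9 in TG replicate 2, the library rich in both, was at 12.7 CPM, between the other TG libraries.

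The profiles most like that of Cxcl9 were taken from 10212 genes with a mean of at least 5 CPM, by the root mean square difference of log2 levels centred on each gene's mean over the 8 libraries. The median over all genes was 0.473. Rhd, the rhesus blood group gene, differed by 0.171 and Sort1, the sorting receptor sortilin, by 0.210. Sort1 was at 78.7, 103, 90.1 and 81.1 CPM in TG, against 61.8, 50.7, 55.6 and 56.5 CPM in WT. This likeness includes the difference between the groups for which Cxcl9 was chosen. With the group means removed, Tax1bp3, Dhps and Akt1s1 were the closest, at 0.034, 0.043 and 0.048, against a median of 0.211.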

How the data were processed

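The data are 4 TG and 4 WT libraries of polyadenylated RNA from mouse heart, and groups were taken from the sample titles. Each deposited table gives, per the file headers, an expected count and an FPKM value by NCBI Gene number. The expected count is an estimated, unnormalized number of reads per gene, and FPKM is the authors' value scaled by length and depth. Per the submitters' processing notes, Bowtie2 and build mm8 were used, with no step stated. The counting program and the use of strand are not given in the sources used here. Genes that a table does not list were taken as 0.

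Of 18215 gene numbers 18174 matched a symbol in the NCBI table of GRCm38.p6. That build differs from mm8, so it served for names and for promoter sequences, which were not joined to the counts. Expected counts were rounded. Genes were kept with filterByExpr (minimum count 10, minimum total 15), which left 12670. TG was set against WT with edgeR 4.0.16 in R 4.3.3 (TMM scaling, quasi-likelihood F-test, two-sided, Benjamini-Hochberg adjustment, threshold 0.05). CPM uses the TMM-scaled library sizes. SE was taken as |log2 fold change| over the root of F, and intervals use its t distribution. DESeq2 1.42.0 and limma 3.58.1 on log2(FPKM + 1) and log2(FPKM + 0.1) were alternatives, with RLE scaling, other filters, the replicate number as a block, Carns1 left out, depth class and each library left out. The scripts were tested on simulated data.

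Named genes were all members, Carns1, the most abundant and up to 3 members with the smallest p of each list, detected receptors and the 3 profiles most like Cxcl9 by each measure. Some genes this rule names are not reported here. Cxcl13, Ccl7, Ccl12, Cxcl11, Cd3e, Ncr1, Myh6, Adam17 and the class II genes H2-Aa, H2-Ab1 and H2-Eb1 were named after their values were seen. The members and lists were chosen with earlier results of these data known. The libraries of a group differed by more than sampling noise (chi-square per degree of freedom of 4.45 or more). Reads carry no molecular identifiers, so intervals on counts cover counting error only.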

Additional observations from a re-analysis of the deposited data

Results flagged for a closer look

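Among the 20 sets of 4 libraries (10 chemokine genes in TG and in WT), 1 held a library far from the others, and chance marks about 1 in 20. Ccl2 in WT libraries was at 3.76 CPM in WT replicate 3 and at 1.99 to 2.19 CPM in the other 3, with a gap of 0.886 of the whole range.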

How the results depend on the processing

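No chemokine member passed the threshold in edgeR (0 of 9 tested). At an unadjusted p under 0.05 in edgeR there was 1, Cxcl9 itself, against 3.49% of all tested genes. With DESeq2, and with the depth class as a covariate, 1 member passed the threshold, again Cxcl9. Cxcl9 was chosen on this contrast, so none of these counts is support for it. Leaving out each replicate gave 0 members past the threshold in every case. Over all genes the count was 2, against 15 with DESeq2, 28 with the depth class as a covariate, 59 in the deeper and 4 in the shallower libraries only, 4 with no filter, 1 with limma on log2(FPKM + 1), 1 on log2(FPKM + 0.1), 0 without Carns1, 1 to 3 with each replicate left out, and 1 with TG replicates 1 and 2 left out together, a setting chosen after seeing the data. With the replicate block the counts were 0 members and 1 gene. Deviations of same-numbered libraries had correlations of 0.25, -0.29, -0.20 and 0.41, and 3 of 8 libraries correlated best with their own number. Pairs 1 and 4 share a depth class and pairs 2 and 3 do not. These values therefore cannot tell whether the numbers pair the libraries.

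The log2 fold change of Cxcl9 lay between 0.64 (log2(FPKM + 1), where the offset shrinks low genes) and 0.93. Cxcl9 was chosen on this contrast, so its constant sign is no support for it. Uncalled members changed sign, and the cause was not tested: Ccl9 at 0.45 in the deeper libraries, Ccl2, Ccl6 and Cx3cl1 at -0.37, -0.01 and -0.09 in the shallower ones, and Ccl2 and Ccl8 at -0.03 and -0.25 without TG replicates 1 and 2. With each replicate left out, Ccl2 ranged from -0.07 to 0.38, Ccl6 from -0.04 to 0.31, Ccl9 from -0.27 to 0.23 and Cxcl12 from -0.03 to 0.15. Ccl8 was filtered out without TG replicate 1 and without Carns1, and Ccl2 and Ccl8 at a mean of at least 5 CPM. Depth limits Cxcl10 and Cxcr3, which had 12 or fewer counts per group.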
